A study of Mus musculus with 6 samples.

Results

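Collagens of the fibril-associated, network-forming, anchoring and transmembrane classes are described here by 9 genes: Col12a1, Col14a1, Col16a1, Col15a1, Col18a1, Col8a1, Col8a2, Col7a1 and Col13a1. They were taken by name as a list of nonfibrillar collagens, by a rule that uses no expression value, although results of these data were known when the list was drawn up, and they are 9 of the 22483 genes in the table. RNA sequencing had been performed on stromal cells of the leg muscles of Swiss white mice aged 8 to 12 weeks. Acute injury was induced in the right leg by cardiotoxin, a snake venom toxin that kills muscle fibers, at 20 uM, and the cells were collected on day 3. The contralateral untreated muscle of the same mice served as control. CD45, CD31 and CD11b positive cells had been gated out, and 3 subpopulations were sorted on CD140a (the product of Pdgfra) and Sca1 (the product of Ly6a), both cell surface proteins: CD140a(-)/Sca1(+), CD140a(+)/Sca1(-) and CD140a(+)/Sca1(+). There was 1 library per subpopulation and state, hence 3 injured and 3 control libraries. Cardiotoxin was given to 5 mice, and how many of them contributed to a library is not stated. The labels name the tibialis anterior as the tissue, whereas the text of the study places acute injury in the gastrocnemius and soleus muscles.

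Collagens of these classes do not build the thick fibrils of types I and III. The fibril-associated types XII, XIV and XVI (FACITs, fibril-associated collagens with interrupted triple helices) sit on fibril surfaces or link fibrils to neighboring matrix, types XV and XVIII (multiplexins) are basement membrane zone collagens that carry sugar chains, type VIII forms short-chain networks in vessel walls and in the eye, type VII forms anchoring fibrils under epithelia, and type XIII spans the plasma membrane at adhesion sites and at the neuromuscular junction. In muscle, fibro-adipogenic progenitors (FAPs, CD140a and Sca1 positive stromal cells) are a known source of collagen after injury, while capillaries and myofibers are wrapped in basement membrane.

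Values are normalized counts, that is, read counts divided by a library size factor, as recovered from the deposited log2 values, and changes are log2 differences between deposited values, whose floor, reached by genes without reads, is 2.57. That scale compresses low counts, so a change on it can be smaller than the fold difference in normalized counts. For Col13a1 in CD140a(+)/Sca1(+) cells, a 5.24-fold fall was -1.85 on it. The 3-fold threshold used below was set on the deposited scale. Within each state, 3 values follow the order CD140a(-)/Sca1(+), CD140a(+)/Sca1(-), CD140a(+)/Sca1(+). Estimated depth was 14173590, 2094353 and 4076205 reads in the injured libraries and 11984413, 3248537 and 2346691 reads in the control libraries. The injured CD140a(+)/Sca1(-) library stood apart. It listed 69.1% of all genes at 0, against 28.2% to 39.0% in the other 5 libraries, and it listed 928 of 5274 genes at 0 that had at least 20 normalized counts in each of the other 5 libraries. The same count, made for each of the other 5 libraries, was 0 to 2. Control CD140a(+)/Sca1(+), at 2346691 reads, listed 33.4% of all genes at 0. The genes behind the sort did not follow the labels in every library. The study reports that sorting enrichment was lowest in control CD140a(+)/Sca1(+) cells. Pdgfra had 335, 203 and 1240 normalized counts in injured cells against 211, 33.6 and 26.3 in control cells, so the CD140a(-) library was the highest of the controls and the injured one exceeded injured CD140a(+)/Sca1(-) cells. The subpopulations are named here as labeled, and the injury fit is also given without each of them. Ly6a had 1177, 2.09 and 4099 in injured cells against 5850, 70.4 and 253 in control cells, and Pecam1, which encodes CD31, had 1.39, 0 and 1.51 in injured cells against 47.4, 19.8 and 105 in control cells. Of the other gates, Ptprc, which encodes CD45, had 2.50, 0 and 0.533 in injured cells against 20.5, 0 and 0.887 in control cells, and Itgam, which encodes CD11b, had 22.5, 27.5 and 8.48 in injured cells against 24.0, 13.5 and 18.5 in control cells. The summed level of 12 endothelial markers was 76.7 to 255 CPM (normalized counts scaled to the library total) in injured libraries. It was 1572 to 15694 CPM in control libraries, although the gate had removed CD31 positive cells. Fabp4 was the most abundant of the 12 in every library, with 47.2, 156 and 298 normalized counts in injured cells. In control cells Fabp4 had 2318, 2590 and 29146, so these sums depend largely on 1 gene. In bulk samples fewer cells of a type and less RNA per cell cannot be told apart.

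All 9 members passed the filter on low values. Col8a1 and Col14a1 rose after injury and were higher in all 3 subpopulations, and Col13a1 fell and was lower in all 3. The other 6 did not pass the threshold: Col12a1, Col16a1, Col15a1 and Col7a1 had changes of opposite sign in different subpopulations, Col18a1 differed little, and Col8a2 was low in every library. The threshold was an unadjusted p under 0.05 and at least a 3-fold change, here by limma with subpopulation as block. The study states this p in the legend of its gene table and a stricter one in its text. Under it, 2 of the 9 were higher, against 2.3% of the 15532 genes tested, and 1 of the 9 was lower, against 3.46%. At an unadjusted p under 0.01, the stricter of these, 2 of the 9 (Col8a1 and Col14a1) were higher, against 0.927% of all genes, and none was lower, against 1.18%, since Col13a1 had an unadjusted p of 0.0116 from limma. The same 3 genes were those whose 3 injured libraries did not overlap the 3 control libraries, a pattern held by 4.18% of all genes in the higher and 11.2% in the lower direction. In all, 357 genes were higher and 537 lower, against 862 higher and 333 lower when the 75th percentiles of the libraries were set equal, where the same pair of members was higher and none was lower. The median fitted change of the 9 was 0.22, against -0.33 for all genes tested. No gene in the table had an adjusted p under 0.05 in this fit, where the lowest was 0.192 and 1241 genes had an unadjusted p under 0.05. The p-values rest on the spread between 3 subpopulations, each with 1 library per state.

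**Figure D1:**
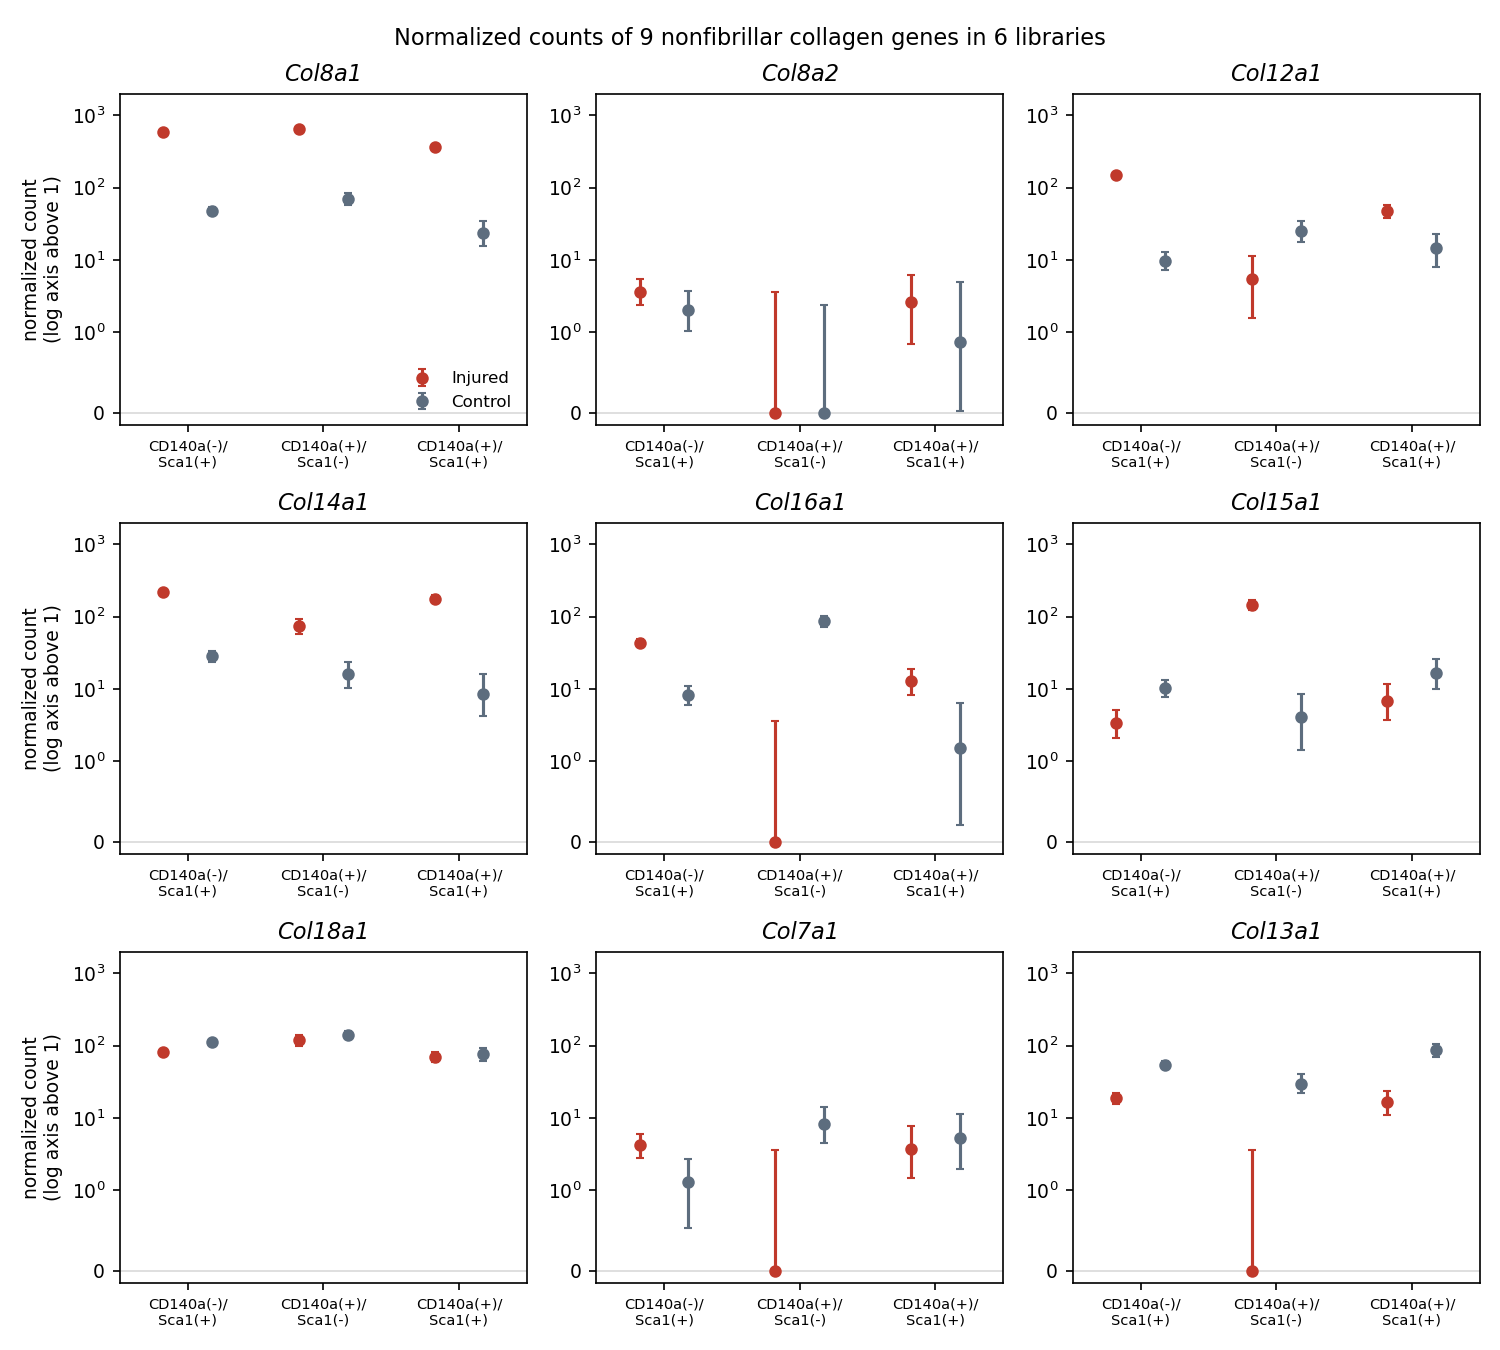
Normalized counts of the 9 collagen genes (vertical axis, logarithmic above 1 and linear below it) in the 3 subpopulations (horizontal axis), injured in red to the left of control in gray, 1 library per point, with bars giving the exact 95% counting interval on the estimated reads. Col8a1 and Col14a1 lay higher in each injured library than in every control library, Col13a1 lay lower, and 4 members stood at 0 in injured CD140a(+)/Sca1(-) cells.

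Type VIII collagen is built from the chains of Col8a1 and Col8a2, and the pair differed in both level and change. Col8a1 (chr16:57624258-57754737, minus strand, GRCm38) had 588, 637 and 362 normalized counts in injured cells, against 47.6, 70.0 and 23.8 in control cells. Every injured library exceeded every control library by a wide margin. The ratio of injured to control was 12.4 (95% counting interval 10.9 to 14.1) in CD140a(-)/Sca1(+), 9.10 (7.42 to 11.2) in CD140a(+)/Sca1(-) and 15.2 (10.3 to 23.2) in CD140a(+)/Sca1(+) cells. The fitted change was 3.26 on the log2 scale (SE 0.48, adjusted p = 0.261 from limma), rank 36 of the 15532 genes from the largest increase. Adjusted p for Col8a1 ranged from 0.000289 to 0.836 over the alternative settings, with unadjusted p under 0.05 in each. The lowest came with the 75th percentiles of the libraries set equal, where every member had the same SE (0.75). Col8a2 (chr4:126286793-126314330, plus strand) was low, at 3.65, 0 and 2.65 normalized counts in injured cells and 2.06, 0 and 0.883 in control cells. The states overlapped for Col8a2, and 3 reads corresponded to 0.439, 2.94 and 1.59 normalized counts in the injured and to 0.562, 1.93 and 2.65 in the control libraries. Its ratio was 1.77 (0.841 to 3.99) in CD140a(-)/Sca1(+) cells and 3.00 (0.336 to 142) in CD140a(+)/Sca1(+) cells, the second from 5 reads against 1, and the fitted change was 0.22 (SE 0.48, adjusted p = 0.883 from limma). A difference between the states was not detectable for Col8a2 at this depth.

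The stretches of 250 bases before the RefSeq start (GRCm38.p6) are printed for both type VIII chains, since one had the largest change of the 9 and the other was low in every library, and for Col13a1, the member that fell. Of the 9 members 7 were matched by symbol, all but Col12a1 and Col14a1. Capitals mark matches, on either strand, to any of 6 motifs searched. TGANTCA was taken for the AP-1 factors, which answer to growth signals. GGAATG was taken for the TEAD factors of the Hippo pathway, and CAGACA for the SMAD factors of TGF-beta signaling. The CCAAT box was searched by its name's letters, the GC box as GGGCGG, and the TATA box of core promoters as TATAAA.
Col8a1 (chr16:57754738-57754987, minus strand): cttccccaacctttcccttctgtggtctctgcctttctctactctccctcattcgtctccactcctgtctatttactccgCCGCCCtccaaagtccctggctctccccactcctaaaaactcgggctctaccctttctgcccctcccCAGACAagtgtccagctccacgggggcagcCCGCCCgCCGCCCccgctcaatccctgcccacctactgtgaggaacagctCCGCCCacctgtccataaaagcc
Col8a2 (chr4:126286544-126286793, plus strand): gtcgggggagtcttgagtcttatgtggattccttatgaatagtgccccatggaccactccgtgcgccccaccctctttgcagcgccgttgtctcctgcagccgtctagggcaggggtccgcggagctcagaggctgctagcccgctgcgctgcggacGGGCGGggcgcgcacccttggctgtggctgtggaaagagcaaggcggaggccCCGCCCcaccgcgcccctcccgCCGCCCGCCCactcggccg
Col13a1 (chr10:61979109-61979358, minus strand): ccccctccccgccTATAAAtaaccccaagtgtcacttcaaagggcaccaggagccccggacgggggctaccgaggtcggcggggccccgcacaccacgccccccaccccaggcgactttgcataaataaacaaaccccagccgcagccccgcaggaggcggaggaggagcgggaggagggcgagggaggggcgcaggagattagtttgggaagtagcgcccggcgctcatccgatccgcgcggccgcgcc
The Col8a1 stretch held 4 GC boxes and 1 SMAD match, the Col8a2 stretch 4 GC boxes of which the last pair overlapped, and the Col13a1 stretch a single TATA match 237 to 232 bases before the start. Of 32851 such stretches genome-wide, 32.7% held a GC box, 17.1% a SMAD match, 12.4% a TATA match, 33.8% a CCAAT match, 12.6% a TEAD match and 6.75% an AP-1 match. None of the 3 stretches held an AP-1, TEAD or CCAAT match. GC content was 60.8% for Col8a1, 70% for Col8a2 and 68.8% for Col13a1, against a median of 52.4% over all stretches.

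Among the fibril-associated members, Col14a1 rose in every subpopulation. Type XIV collagen, its product, coats the surface of type I fibrils in tendon, skin and muscle connective tissue. Col14a1 (chr15:55307750-55520803, plus strand) had 221, 73.6 and 177 normalized counts in injured cells, against 28.1, 16.3 and 8.65 in control cells. The injured libraries were all above the controls, and injured CD140a(+)/Sca1(-) cells had the lowest of the 3 injured levels. The ratio was 7.85 (6.63 to 9.35), 4.52 (2.88 to 7.52) and 20.5 (10.8 to 42.3) in the 3 subpopulations. The fitted change was 2.53 (SE 0.55, adjusted p = 0.393 from limma), rank 109 from the largest increase. Its adjusted p ranged from 0.00919 to 0.836 over the alternative settings, again with unadjusted p under 0.05 in each. The lowest came from the same setting as for Col8a1.

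Col12a1, whose product type XII collagen bridges fibrils in tendon, fascia and muscle connective tissue, was higher in the Sca1(+) subpopulations and lower in CD140a(+)/Sca1(-) cells. Col12a1 (chr9:79598991-79718831, minus strand) had 152, 5.38 and 47.4 normalized counts in injured cells, against 9.76, 25.1 and 14.5 in control cells. The states overlapped, because injured CD140a(+)/Sca1(-) cells had the lowest of all 6 levels and injured CD140a(-)/Sca1(+) cells the highest. The ratio was 15.5 (11.8 to 21.0) in CD140a(-)/Sca1(+) cells and 3.26 (1.95 to 6.09) in CD140a(+)/Sca1(+) cells, and in CD140a(+)/Sca1(-) cells the level was 4.67-fold lower after injury (ratio 0.214, 0.0603 to 0.497). Over the 3 pairs the fitted change was 1.0 (SE 0.86, adjusted p = 0.716 from limma). Without the CD140a(+)/Sca1(-) pair it was 2.14 and passed the threshold, with an adjusted p of 0.248 from limma (0.248 to 1 over the alternatives), and without the CD140a(-)/Sca1(+) pair it was -0.022, so the direction of the pooled value rested on single pairs.

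Col16a1, whose product is a minor fibril-associated collagen, showed the widest spread of changes among subpopulations of the 9. Col16a1 (chr4:130047840-130099283, plus strand) had 43.9, 0 and 12.8 normalized counts in injured cells, against 8.27, 86.2 and 1.52 in control cells. Its highest level was in control CD140a(+)/Sca1(-) cells and its lowest, with no read, in injured cells of that same subpopulation. The ratio was 5.30 (3.87 to 7.47) in CD140a(-)/Sca1(+) cells and 8.40 (1.79 to 62.9) in CD140a(+)/Sca1(+) cells, the second against a control of 2 reads. In CD140a(+)/Sca1(-) cells no injured read stood against 134 control reads, with an upper 95% counting limit of 0.0426 on the ratio. That limit covers counting error only. The same injured library listed 928 of 5274 genes at 0 that had at least 20 normalized counts in each other library. S100b, a marker of Schwann cells, had 4.09, 0 and 9.01 normalized counts in injured cells, against 16.3, 460 and 84.7 in control cells. It too was highest in control CD140a(+)/Sca1(-) cells and at 0 in injured cells of that subpopulation, and its part in the Col16a1 value was not tested. The fitted change over the 3 pairs was -0.40 (SE 1.15, adjusted p = 0.915 from limma), and it was 1.42 without the CD140a(+)/Sca1(-) pair.

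**Figure D2:**
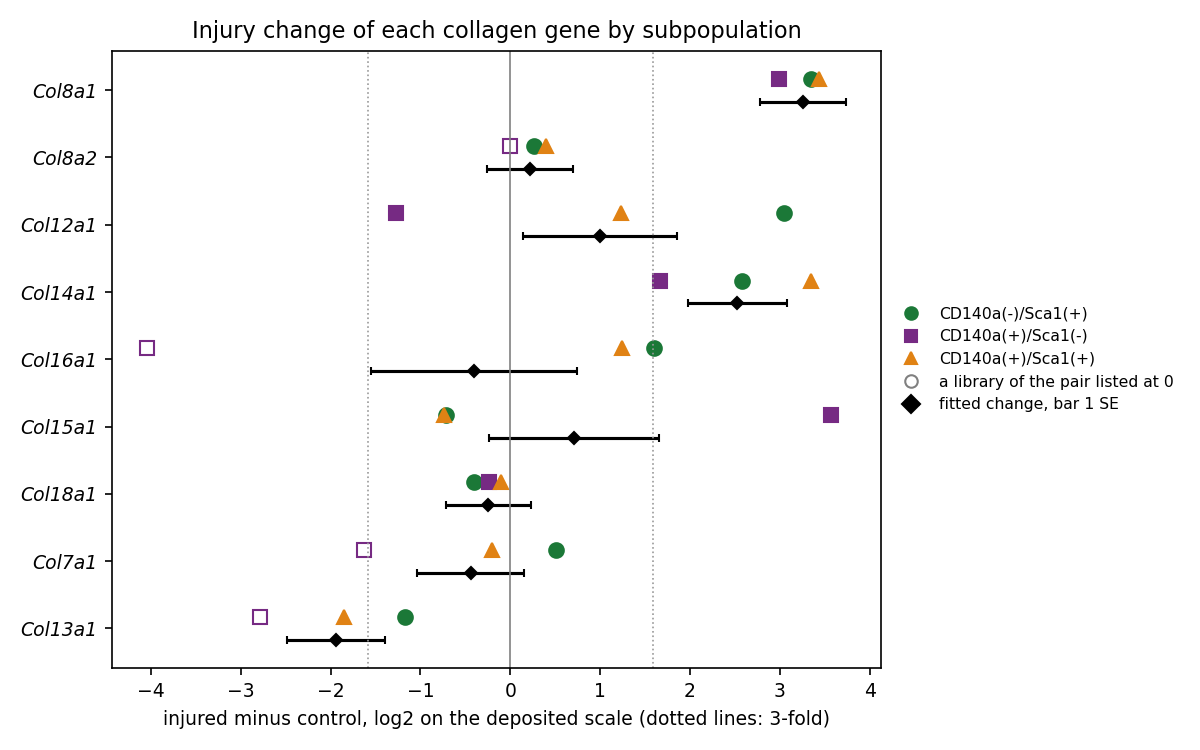
Injured minus control in log2 on the deposited scale (horizontal axis) for each of the 9 genes (vertical axis), with a colored symbol per subpopulation, open where a library of the pair was listed at 0, and a black diamond for the fitted change with a bar of 1 SE. The symbols of Col8a1 stay together near 3, whereas those of Col12a1, Col16a1 and Col15a1 lie on both sides of 0.

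The multiplexins differed from one another. Col15a1, whose product type XV collagen lies in the basement membrane zone of myofibers and capillaries, was high in a single library. Col15a1 (chr4:47208161-47313167, plus strand) had 3.40, 147 and 6.73 normalized counts in injured cells, against 10.3, 4.08 and 16.8 in control cells. Injured CD140a(+)/Sca1(-) cells stood above the other 5 libraries, and the injured levels were below the control levels in both Sca1(+) subpopulations. The ratio was 35.9 (17.0 to 105) in CD140a(+)/Sca1(-) cells, and 0.330 (0.191 to 0.540) and 0.400 (0.186 to 0.877) in CD140a(-)/Sca1(+) and CD140a(+)/Sca1(+) cells. The fitted change was 0.71 (SE 0.95, adjusted p = 0.795 from limma), and it was -0.73 without the CD140a(+)/Sca1(-) pair. Its exons shared 14 bases with the antisense gene Gm12426, not analysed here.

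Col18a1, the type XVIII collagen gene whose cleaved end is endostatin, had the narrowest spread of changes among the subpopulations. Col18a1 (chr10:77052178-77166548, minus strand) had 82.1, 118 and 70.2 normalized counts in injured cells, against 112, 141 and 76.1 in control cells. The states overlapped, and in each state CD140a(+)/Sca1(-) cells had the highest level and CD140a(+)/Sca1(+) cells the lowest. The ratio was 0.735 (0.654 to 0.827), 0.839 (0.667 to 1.05) and 0.923 (0.697 to 1.22) in the 3 subpopulations, so the counting interval lay below 1 in CD140a(-)/Sca1(+) cells alone, where the depth was greatest. The fitted change was -0.24 (SE 0.48, 95% interval -1.40 to 0.91, adjusted p = 0.866 from limma), close to the median of all genes. Ordered from high to low, the 6 libraries ran control and injured CD140a(+)/Sca1(-), control and injured CD140a(-)/Sca1(+), control and injured CD140a(+)/Sca1(+). Among neighbors in that order, only the injured and control CD140a(-)/Sca1(+) libraries had counting intervals that did not overlap.

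Col7a1, the gene of the anchoring fibril collagen of skin, was low everywhere. Col7a1 (chr9:108953586-108984875, plus strand) had 4.24, 0 and 3.71 normalized counts in injured cells, against 1.31, 8.35 and 5.30 in control cells. The states overlapped and all counting intervals of neighboring levels did too. The ratio was 3.23 (1.38 to 8.74) in CD140a(-)/Sca1(+) cells, from 29 reads against 7, and 0.700 (0.202 to 2.52) in CD140a(+)/Sca1(+) cells. In CD140a(+)/Sca1(-) cells no injured read stood against 13 control reads, with an upper limit of 0.501 on the ratio for counting error alone. The fitted change was -0.44 (SE 0.59, adjusted p = 0.798 from limma).

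Col13a1, the gene of the transmembrane type XIII collagen, was the member that fell. Col13a1 (chr10:61838236-61979108, minus strand) had 18.8, 0 and 16.4 normalized counts in injured cells, against 54.8, 29.9 and 86.0 in control cells. No injured library reached the lowest control. The level was 2.92-fold lower after injury in CD140a(-)/Sca1(+) cells (ratio 0.343, 0.276 to 0.422), and 5.24-fold lower in CD140a(+)/Sca1(+) cells (0.191, 0.124 to 0.290). In CD140a(+)/Sca1(-) cells no injured read stood against 47 control reads, with an upper limit of 0.125 on the ratio for counting error alone. The fitted change was -1.94 (SE 0.54, adjusted p = 0.489 from limma), rank 408 from the largest fall. Without the CD140a(+)/Sca1(-) pair the change was -1.51, below 3-fold on the deposited scale. Its adjusted p from limma was then 0.442, in a range of 0.372 to 0.836 over the alternatives. The call was also lost at an unadjusted p under 0.01, when the 75th percentiles of the libraries were set equal (-1.50) and with unmoderated variance (-1.94). Endothelial markers moved in the same direction: 10 of 12 fell, with a median of -2.91. Cldn5 and Vwf were at 0 in all 3 injured libraries, whereas Flt1 had 32.1, 0 and 69.6 normalized counts there and Kdr 22.4, 0 and 89.0. The part of the endothelial markers in the Col13a1 result was not tested.

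Single subpopulations, where 1 library stands against 1 library and no test was possible, gave the following counts of changes of at least 3-fold on the deposited scale. In CD140a(-)/Sca1(+) cells 4 of the 9 were higher, namely Col8a1, Col12a1, Col14a1 and Col16a1, and none was lower. Of the 15532 genes tested, the base of each pair of shares given here, 1.97% were higher and 4.35% lower. In CD140a(+)/Sca1(-) cells 3 were higher (Col8a1, Col14a1 and Col15a1) and 3 were lower (Col16a1, Col7a1 and Col13a1), against 8.31% and 29.4%. The lower ones were all listed at 0 in the injured library, as were 69.1% of the 22483 genes in the table, tested or not. In CD140a(+)/Sca1(+) cells 2 were higher (Col8a1 and Col14a1) and Col13a1 was lower, against 10.4% and 6.07%. Some ratios of normalized counts passed 3-fold though the deposited change did not. In CD140a(-)/Sca1(+) cells these were Col7a1 (3.23) and Col15a1 (0.330), and in CD140a(+)/Sca1(-) cells Col12a1 (0.214). In CD140a(+)/Sca1(+) cells they were Col12a1 (3.26), Col16a1 (8.40) and Col8a2 (3.00). The matching shares of all genes were not counted.

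**Figure D3:**
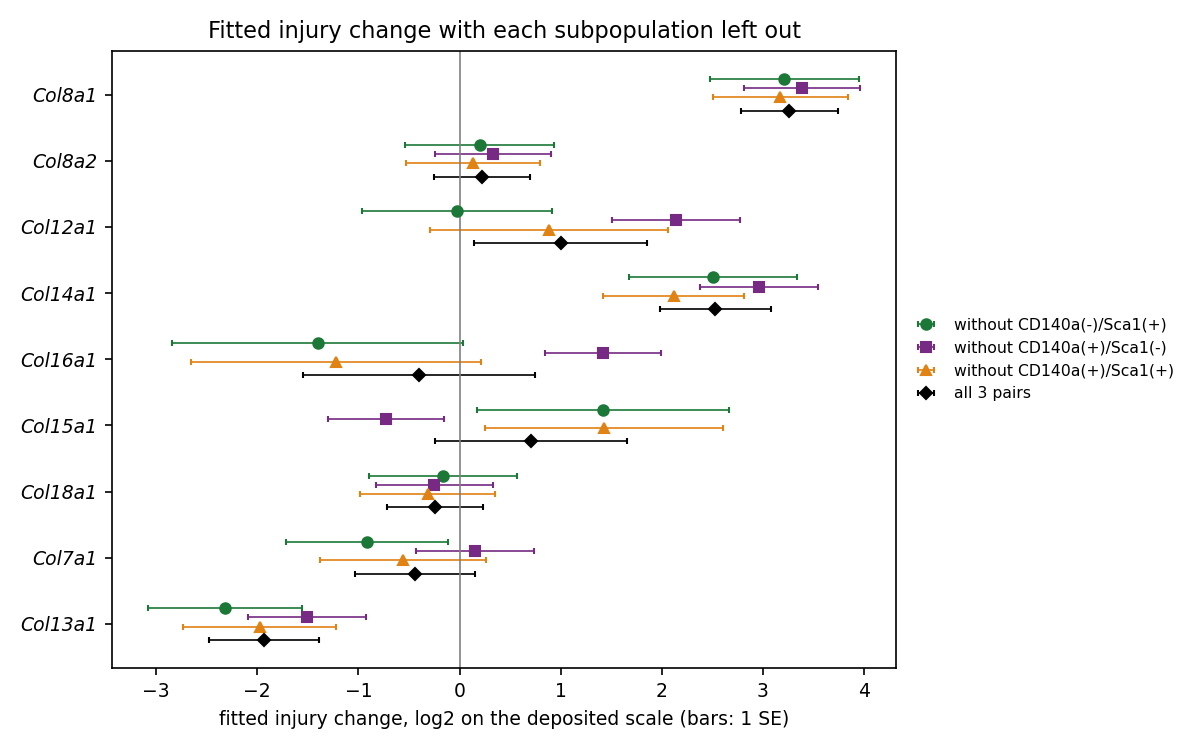
Fitted injury change in log2 on the deposited scale (horizontal axis, bars of 1 SE) for each of the 9 genes (vertical axis), with each subpopulation's pair of libraries left out in turn (colored symbols) and with all 3 pairs (black diamonds). Col8a1 and Col14a1 stayed above 2 throughout, and Col16a1 and Col15a1 changed sign without the CD140a(+)/Sca1(-) pair.

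Differences between subpopulations over both states were fitted as each subpopulation minus the mean of the other 2. None of the 9 passed the threshold for CD140a(-)/Sca1(+) cells, where 1.33% of all genes were higher and 0.283% lower, or for CD140a(+)/Sca1(+) cells, where 1.32% were higher and 0.47% lower. For CD140a(+)/Sca1(-) cells, where 0.657% were higher and 3.73% lower, no member was higher and 1 of the 9, Col13a1, was lower, at -1.61 (SE 0.58, adjusted p = 0.615 from limma), and this call was lost in 9 of the 14 alternatives, including the one without the injured CD140a(+)/Sca1(-) library (-0.97). No gene in the table had an adjusted p under 0.05 from limma in any of these contrasts, and 353, 906 and 397 genes had an unadjusted p under 0.05.

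The genes whose pattern over the 6 libraries was most like that of a member were found by the smallest root mean square (RMS) difference of centered log2 values, among 3466 abundant genes. These genes were chosen by the same values, so their likeness to a member is no separate result. For Col8a1, with an SD of 1.69 over the libraries, they were Ccn4, a matricellular protein gene, at an RMS of 0.31, Sdc1, the gene of syndecan-1, at 0.32, and Col5a2, a fibrillar collagen gene, at 0.33. Ccn4 had 309, 444 and 250 normalized counts in injured cells, against 16.6, 20.5 and 8.05 in control cells. For Col14a1 (SD 1.37) they were Ccdc80, Sod3 and Adamts2, at 0.30, 0.31 and 0.34. Sod3 encodes the extracellular superoxide dismutase and Adamts2 a procollagen proteinase. Col13a1 (SD 1.28) was nearest to Ptp4a3, Vezt and Olfr607, at 0.18, 0.28 and 0.32, and Col15a1 (SD 1.25) to Arid2, Fndc3a and Sfmbt1, at 0.26, 0.28 and 0.28. Arid2, a chromatin remodeling gene, had 104, 948 and 134 normalized counts in injured cells, against 124, 122 and 227 in control cells. Its highest level was in injured CD140a(+)/Sca1(-) cells, the pattern it was chosen for. Col18a1 (SD 0.33) was nearest to Canx, Rabggtb and Hnrnpa1, each at 0.12, whose products act in protein folding, Rab protein lipidation and RNA binding. Col16a1 (SD 1.38) and Col12a1 (SD 1.15) had looser neighbors, Cp, Dusp5 and Fgl2 at 0.38, 0.64 and 0.71 and Cblb, C1galt1 and Ddost at 0.59, 0.63 and 0.64.

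The genes around the 9 give the setting. Of 11 fibrillar collagen genes tested, 6 rose and none fell, with a median of 3.31. The largest were Col3a1 (4.62), Col5a1 (4.42) and Col5a3 (3.97), the chains of type III and type V collagen. Of 9 genes whose products bind fibril surfaces, 4 rose and none fell, with a median of 1.31. Tnc, the gene of tenascin C, a glycoprotein of remodeling matrix, had 401, 326 and 1082 normalized counts in injured cells, against 45.3, 32.3 and 4.44 in control cells (4.05, SE 0.80). Bgn and Prelp, of small leucine-rich proteoglycans, changed by 3.58 and 2.73.

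A list of 12 further nonfibrillar collagen genes left out types IV and VI. Of the 11 tested, 1 rose and 2 fell, with a median of -0.75, and 10 of the 12 listed genes were at 0 in injured CD140a(+)/Sca1(-) cells. Col23a1, which encodes another transmembrane collagen, rose, with 20.6, 104 and 20.0 normalized counts in injured cells, against 3.54, 3.40 and 5.34 in control cells (1.86, SE 0.61). It thus moved opposite to Col13a1 without overlap between the states. Col22a1, the gene of a collagen of the muscle and tendon junction, fell, with 9.65, 2.94 and 3.71 in injured cells, against 34.5, 75.2 and 31.8 in control cells (-1.94, SE 0.55). Col20a1 fell as well (-1.66, SE 0.67).

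Of 12 basement membrane genes, partners of types XV and XVIII, 1 rose and 1 fell, with a median of -0.05. Lamb1, the laminin beta 1 chain gene, rose (1.61, SE 0.52), and Lama5, of the laminin alpha 5 chain, fell (-1.67, SE 0.47), with 0, 0 and 2.12 normalized counts in injured cells, against 9.75, 9.64 and 20.3 in control cells. None of 7 collagen receptor genes tested passed the threshold. The most abundant of these were Itgb1, of the integrin beta 1 chain, with 2374, 2511 and 1410 normalized counts in injured cells against 1367, 2007 and 1309 in control cells, and Ddr2, a receptor kinase for fibrillar collagens, with 680, 1033 and 666 in injured cells against 445, 353 and 208 in control cells.

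Marker lists of stromal and other cell types, those gated out included, gave the following. FAP markers summed to 3555 to 6608 CPM in injured and 648 to 6424 CPM in control libraries, and 3 of 10 rose, with Pdgfra at 2.66, Dpt at 2.50 and Lum at 2.40. Gsn (-0.84), Ly6a (-0.43) and Cd34 (-0.03) had changes below 0, short of the threshold. Tendon markers summed to 159 to 757 CPM in injured and 56.7 to 403 CPM in control libraries, and 1 of 4 tested rose (Thbs4, 2.13). Pericyte and smooth muscle markers summed to 121 to 410 CPM in injured and 245 to 466 CPM in control libraries, and 3 of 8 fell (Rgs5, -4.47, Myh11, -2.80, and Notch3, -1.72). Acta2 (0.67) and Cnn1 (0.16) had changes above 0, short of the threshold. Of the endothelial markers, Fabp4 (-5.28), Egfl7 (-4.62) and Cdh5 (-4.36) fell the most. The Schwann cell marker S100b fell (-3.22, SE 1.03). Leukocyte markers summed to 102 to 282 CPM in injured and 39.5 to 131 CPM in control libraries, and 1 of 6 rose (Lyz2, 2.20). Ptprc (-0.53) and Itgam (-0.01) had changes below 0, short of the threshold. Myogenic markers summed to 66.5 to 91.2 CPM in injured and 32.1 to 101 CPM in control libraries, and none of 4 tested passed. Most of each sum was Chrna1, with 158, 187 and 143 normalized counts in injured cells, against 65.6, 115 and 191 in control cells. Myod1 was at 0 in all 3 injured libraries, against 3.75, 8.35 and 11.5 in control cells (-1.54, short of the threshold). The part of these marker lists in the members' changes was not tested.

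**Figure D4:**
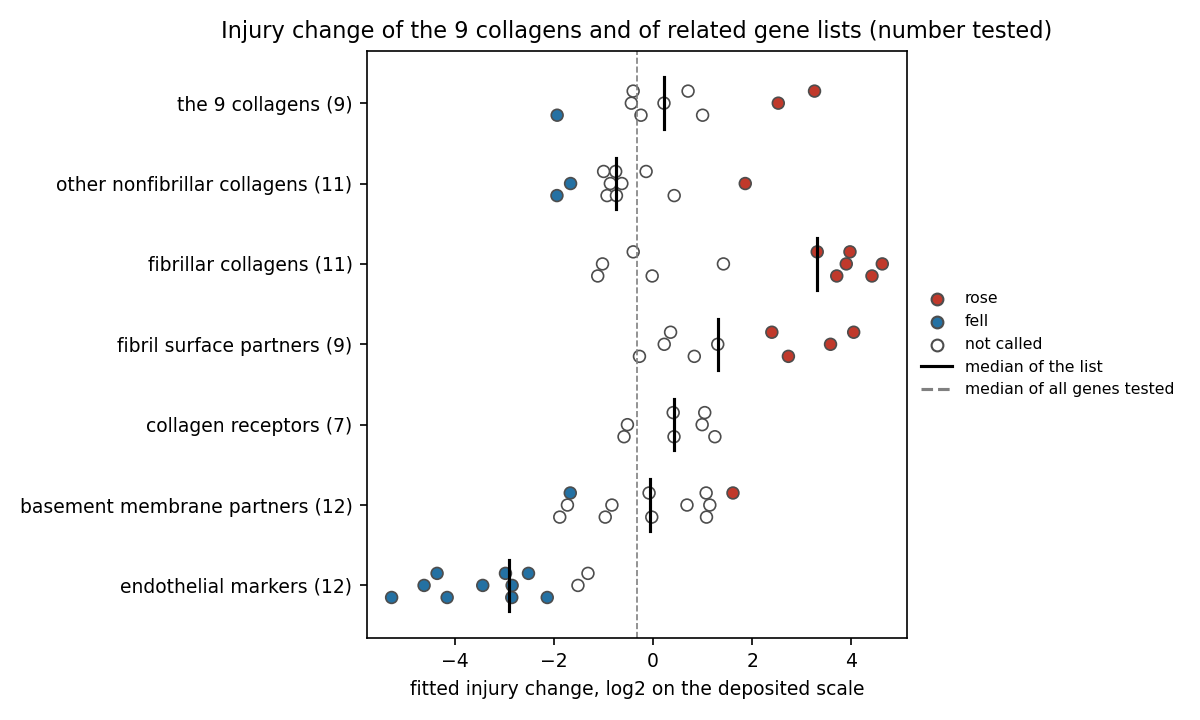
Fitted injury change in log2 on the deposited scale (horizontal axis) of the 9 collagens and of related gene lists (vertical axis, number of genes tested in parentheses), with filled points for genes past the threshold, black bars for list medians and a dashed line for the median of all genes tested. The 9 spread from -1.94 to 3.26 around a median of 0.22, between the fibrillar collagens at 3.31 and the endothelial markers at -2.91.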

How the data were processed

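RNA sequencing of 6 sorted stromal libraries, made with a kit that reads the 3′ ends of mRNA, was analyzed, so isoforms that share an end are not told apart. The authors trimmed the reads, aligned them with STAR to GRCm38 (mm10) and used DESeq2 for normalization. The deposited table holds log2 values after size factors and a variance stabilizing transformation. No columns of the authors' own comparisons were used. Inverting the transformation gave normalized counts, and the step between low values gave the size of 1 read and hence the estimated depth of each library, from 2094353 to 14173590 reads. Of the low values, 54.7% to 61.9% per library lay within 0.02 reads of a whole number, so reads are estimates, and whole reads were not recovered.

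The injury change was fitted on the deposited log2 values by limma 3.58.1 (R 4.3.3), blocked on subpopulation (prior degrees of freedom 4.11, residual 2). Genes were kept where the 80th percentile of the linear form of the values was at least 8, which left 15532. That form has its floor at 5.93, so the filter lies close above 0 reads. P values were two-sided and adjusted over all genes tested by Benjamini and Hochberg. They measure only the spread between these libraries, since none was repeated. Changes within a subpopulation have no test. Exact 95% intervals on the estimated reads cover counting error only. Reads may include amplified copies of a molecule, which the intervals do not cover. Summaries used Python 3.11.15. On simulated data for the injury fit over 15532 genes, the threshold found 71 of 100 genes with a log2 change of 2 and 98 of 100 with one of 4.

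The members and gene lists were chosen with earlier results of these data known. Named beside the members were the genes of the sort, up to 3 genes per list with the largest change among those called (or 2 by level where none was), and the 3 nearest genes of each member averaging at least 20 normalized counts, among genes averaging at least 100. Gene positions are from GENCODE M21 (GRCm38). Alternatives changed the p threshold (0.01), scale, pseudocount (1 or 0.5), filter, scaling between libraries, variance prior, block and libraries used. The other Schwann cell markers are not reported here.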

Additional observations from a re-analysis of the deposited data

Results flagged for a closer look

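For 4 members the change after injury differed in direction among the subpopulations. The difference was not tested, because each subpopulation had 1 library per state. Between the largest and the smallest change on the deposited log2 scale lay 5.64 for Col16a1, 4.32 for Col12a1, 4.31 for Col15a1 and 2.14 for Col7a1. In each of them the CD140a(+)/Sca1(-) pair was at one end of the range: Col16a1 and Col7a1 were listed at 0 in its injured library, Col12a1 had 5 reads there against 39 in its control, and Col15a1 had its highest level there. That injured library was also the shallowest and the one with the most genes at 0, and the part of this in the 4 results was not tested.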

How the results depend on the processing

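Col8a1 and Col14a1 passed the threshold under every alternative run. Of the injury values of the members over the alternatives, 103 kept their direction and side of the threshold, 7 changed sign, 4 lost the call and 1 gained it. Leaving out 1 pair gave 2 to 3 members higher, 0 to 1 lower, 183 to 456 genes higher and 412 to 563 lower, against 2, 1, 357 and 537 with all pairs. The 75th percentiles set equal, which moved the median of all genes to 0.10 against -0.33, gave 862 genes higher, 333 lower and 0 members lower, with Col13a1 at -1.50, Col16a1 at 0.033 and Col18a1 at 0.19. Adjusted p from limma was then 0.000289 for Col8a1 and 0.00919 for Col14a1. In that setting the SE was 0.75 for every member, so these p values do not reflect a member's own spread. The same scaling moved the median CD140a(+)/Sca1(-) contrast of all genes from -0.46 to 0.37. Unmoderated variance gave 114 higher, 180 lower and 0 members lower (Col13a1 -1.94). A p under 0.01, added after the data had been seen, gave 144 higher, 183 lower and 0 members lower (Col13a1 again -1.94). Pseudocounts of 1 and 0.5 gave 866 and 907 genes lower. Equal medians gave 892 lower, with Col8a2 at -0.016 and a median of all genes of -0.57. Without the CD140a(+)/Sca1(-) pair, Col16a1 was 1.42, Col15a1 -0.73, Col7a1 0.15, Col13a1 -1.51 and Col12a1 2.14, and without the CD140a(-)/Sca1(+) pair Col12a1 was -0.022. Over the 3 left-out pairs, Col12a1 lay between -0.022 and 2.14, Col16a1 between -1.40 and 1.42, Col15a1 between -0.73 and 1.43, and Col7a1 between -0.91 and 0.15. The cause of these shifts was not tested.

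Among subpopulation contrasts, members lower in CD140a(+)/Sca1(-) numbered 2 with a pseudocount of 0.5, and 0 with the stricter filter, equal 75th percentiles, unmoderated variance or a variance trend. Members higher numbered 1 with equal 75th percentiles. Leaving out 1 library gave 0 to 3 lower and 0 to 1 higher there, 0 to 2 higher and 0 to 1 lower in CD140a(-)/Sca1(+), and 0 to 1 lower in CD140a(+)/Sca1(+). Col13a1 ranged from -3.18 to -0.79 in the CD140a(+)/Sca1(-) contrast over all alternatives, and its adjusted p from 0.0455 to 1. The stricter filter left 10734 genes and 7 members, without Col8a2 and Col7a1. No paired analysis was possible because the labels give no replicate numbers, beyond the subpopulation that already served as block. The injured CD140a(+)/Sca1(-) library was the shallowest, at 2.94 normalized counts for 3 reads, and Col16a1, Col8a2, Col7a1 and Col13a1 were at 0 there.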

Other observations

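The estimated reads of Col8a1, Col8a2 and Col7a1 were whole numbers, within 0.02 reads, in every library where the gene was above 0, whereas those of Col12a1, Col16a1, Col15a1 and Col18a1 were whole in none. Col14a1 and Col13a1 were whole in 1 library each. The exons of Col7a1 shared 36 bases with Mir711, not analysed here. Of the promoter stretches not printed, the 2 of Col18a1 held different motif sets, TEAD and SMAD matches in one and 3 GC boxes with a CCAAT match in the other, and the Col15a1 stretch held none of the 6 motifs.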
